A study of Arabidopsis thaliana with 18 samples.

Results

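REIL2 and REIL1, the Arabidopsis counterparts of yeast Rei1, were followed together with 8 genes whose products act in the last steps of building the large (60S) ribosomal subunit. These 10 genes were chosen by identifier from the 33557 in the deposited table. They are REIL2 (AT2G24500), REIL1 (AT4G31420), NMD3 (AT2G03820), LSG1-1 (AT2G27200), LSG1-2 (AT1G08410), SBDS (AT1G43860), eIF6A (AT3G55620), EBP1 (AT3G51800), RLP24 (AT2G44860) and a J-protein gene called JJJ1-like here (AT1G74250). The libraries came from whole Arabidopsis thaliana seedlings, 14 days old, kept at 4 °C for 4 h. One group carried the mutant allele stch4-1 in the Col-0 background and the other was wild-type Col-0 (WT), with 3 libraries each, called a, b and c. STCH4 is another name of REIL2, and the kind of lesion in stch4-1 is not given in the sources used here. The study also names seedlings of both genotypes at 0 h and 24 h of cold, 12 samples that were not analysed here, so neither the response of these genes to cold nor their level in unchilled plants is described.

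The large subunit leaves the nucleus as a precursor that still carries assembly factors, and it cannot translate until they are removed in the cytosol. In yeast, the export adaptor Nmd3 escorts the particle through the nuclear pore. Rlp24 holds the site later taken by the ribosomal protein L24, and Arx1 sits at the exit of the peptide tunnel. Once L24 has joined, Rei1 and the J protein Jjj1 release Arx1. Sdo1, the yeast SBDS protein, then helps to evict Tif6, the yeast eIF6, whose presence blocks joining to the small subunit, and the GTPase Lsg1 acts in the release of Nmd3. Yeast lacking Rei1 grows poorly in the cold, and the Arabidopsis REIL genes are known for a role in growth at low temperature.

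REIL2 and REIL1 are related enough that reads could in principle be assigned to the wrong copy, so their transcripts were compared in the RefSeq annotation of assembly TAIR10.1. The coding sequences, 1188 bases in REIL2 and 1218 in REIL1, were identical at 79.3% of 1164 aligned bases. The longest run shared by both transcripts was 39 bases, and no run of 50 bases was shared. That run and the 30 coding bases on each side are shown because they are the place where the 2 transcripts are hardest to tell apart. They cover coding bases 193 to 291 in both genes, counted from the start codon, with the shared run in capitals.
REIL2: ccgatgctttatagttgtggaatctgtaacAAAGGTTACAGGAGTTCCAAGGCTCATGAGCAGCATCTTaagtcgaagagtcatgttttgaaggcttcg
REIL1: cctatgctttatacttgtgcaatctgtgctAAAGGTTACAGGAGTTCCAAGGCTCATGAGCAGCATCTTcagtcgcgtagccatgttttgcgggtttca

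The 300 bases before the annotated start of each gene were searched for a pair of short motifs that are common upstream of plant genes for ribosome components, the telo-box (AAACCCTA or, on the other strand, TAGGGTTT) and the site II core (TGGGCC or GGCCCA). No matches overlapped each other in the windows of the 10 genes. Over 27443 protein-coding genes of the nuclear chromosomes, 5.21% of these windows held a telo-box, 14.6% a site II core and 18.6% either one. Of the 10 windows, 3 held at least one of the motifs and 7 held neither. REIL2 had 2 telo-boxes and 1 site II core, RLP24 had 1 telo-box and 3 site II cores, and EBP1 had 2 site II cores and no telo-box. REIL1 had neither, so the paralogues differ here although their coding sequences are alike. The windows of REIL2, its paralogue REIL1 and RLP24, the gene with most matches, follow from RefSeq TAIR10.1, written 5′ to 3′ on the strand of the gene with the matches in capitals. All 3 genes lie on the minus strand. The REIL2 window is chr2:10402935-10403234, the REIL1 window chr4:15248059-15248358 and the RLP24 window chr2:18502563-18502862. The far end of the REIL2 window overlaps the annotated gene MIR5019 by 5 bases. Windows of NMD3, LSG1-2 and JJJ1-like, which held no match, run into annotated protein-coding genes. These overlaps are 252 bases for JJJ1-like, 205 for LSG1-2, and 113 and 62 with separate genes for NMD3. A match is only a match of letters, and binding was not measured.
REIL2: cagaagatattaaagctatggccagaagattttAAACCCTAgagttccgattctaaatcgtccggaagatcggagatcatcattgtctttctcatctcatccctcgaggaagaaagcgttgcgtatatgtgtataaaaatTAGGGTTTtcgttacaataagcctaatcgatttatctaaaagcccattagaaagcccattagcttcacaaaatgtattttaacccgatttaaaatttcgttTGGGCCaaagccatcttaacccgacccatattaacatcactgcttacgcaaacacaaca
REIL1: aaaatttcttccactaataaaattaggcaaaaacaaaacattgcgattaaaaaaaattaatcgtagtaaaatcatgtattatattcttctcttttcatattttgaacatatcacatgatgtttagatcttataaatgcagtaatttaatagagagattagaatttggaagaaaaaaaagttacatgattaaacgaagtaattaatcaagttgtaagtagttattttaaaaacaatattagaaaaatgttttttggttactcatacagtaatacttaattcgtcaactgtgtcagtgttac
RLP24: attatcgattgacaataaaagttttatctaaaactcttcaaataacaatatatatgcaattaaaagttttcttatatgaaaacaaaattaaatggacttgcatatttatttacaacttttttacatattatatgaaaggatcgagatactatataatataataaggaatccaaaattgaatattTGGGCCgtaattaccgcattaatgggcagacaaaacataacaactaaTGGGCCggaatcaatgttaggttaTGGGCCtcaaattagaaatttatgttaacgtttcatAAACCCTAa

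Levels are FPKM as the authors deposited them, that is fragments scaled by transcript length and library size, so levels of different genes can be set side by side. Total counts are not part of such a table. Depth was estimated by taking the commonest level among the lowest genes, corrected for RefSeq exon length, as the worth of a single fragment. That assumption was not tested. It gave an estimated depth of 11000000 to 13500000 fragments per stch4-1 library and 10800000 to 15100000 per WT library. Spearman correlations across genes were 0.992 to 0.994 between libraries of 1 genotype and 0.981 to 0.984 between genotypes, and no library stood apart. Fold changes are differences of group means of log2(FPKM + 1), stch4-1 minus WT, tested with limma over all 19289 genes that reached 1 FPKM in at least 3 libraries, and a gene is called changed at a Benjamini-Hochberg adjusted p under 0.05. Adding 1 understates the change of low genes. All 10 genes passed the filter.

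In the mutant, the REIL2 transcript averaged 0.167 of its WT level, the JJJ1-like gene and SBDS were also lower, and the other 7 genes did not pass the test. Of the 10 genes 3 were called lower and 0 higher, where 32.6% of all tested genes were called, 14.0% lower and 18.5% higher. At an unadjusted limma p under 0.05 the counts were 4 lower and 1 higher. The share of all tested genes at this unadjusted level was not computed, here or for the lists below. It cannot be below the 14.0% lower and 18.5% higher that were called after adjustment. Without REIL2, the mutated gene, 2 of 9 were called lower. The log2 fold change was below 0 in 9 of 10 genes and in 48.1% of all tested genes, with a median of -0.14 over the 10 and 0.01 over all genes. The genotypes did not overlap in 6 of the 10, with stch4-1 below in 5 and above in 1. Over all tested genes stch4-1 lay wholly below WT in 22.7% and wholly above in 25.1%, 47.8% together. Nothing in the labels tells whether replicate seedlings were grown apart, so every p-value here reflects the spread among these 6 libraries, which may be technical.

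The mutated gene comes first. REIL2, a cytosolic zinc-finger protein in late 60S maturation, was measured at 5.65, 5.44 and 5.804 FPKM in stch4-1 a, b and c, against 31.2, 34.1 and 36.0 FPKM in WT a, b and c. Every stch4-1 library lay far below every WT library, and the mutant libraries differed little among themselves. This gave a log2 fold change of -2.39 with a standard error of 0.064 and a 95% interval of -2.54 to -2.24 (limma adjusted p = 1.7e-06), so REIL2 was 5.23-fold lower in the mutant when 1 is added to each value. Only 2 of the 19289 tested genes had a lower fold change. The mutant libraries were not at 0: with the estimated depths, the REIL2 values correspond to about 124 to 145 fragments per stch4-1 library and about 658 to 1006 per WT library. Where in the gene the remaining fragments lie cannot be read from a table of 1 value per gene.

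REIL1, the paralogue, did not pass the test. It had 26.8, 23.8 and 24.6 FPKM in stch4-1, against 26.6, 27.4 and 28.4 FPKM in WT. The genotypes overlapped, through stch4-1 a, which exceeded WT a. The log2 fold change was -0.13, with a 95% interval of -0.25 to -0.0025 that is not adjusted for the number of genes (limma adjusted p = 0.108). No rise of REIL1 is within that interval. REIL2 and REIL1 together amounted to 30.7 ± 1.61 FPKM in stch4-1 and 61.2 ± 3.33 FPKM in WT (SD, n = 3 each). REIL2 made up 18.4% ± 0.860 of that sum in stch4-1 and 55.1% ± 1.02 in WT (SD, n = 3 each). REIL2 was thus the more abundant transcript of the pair in all 3 WT libraries, and REIL1 in all 3 stch4-1 libraries.

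**Figure D1:**
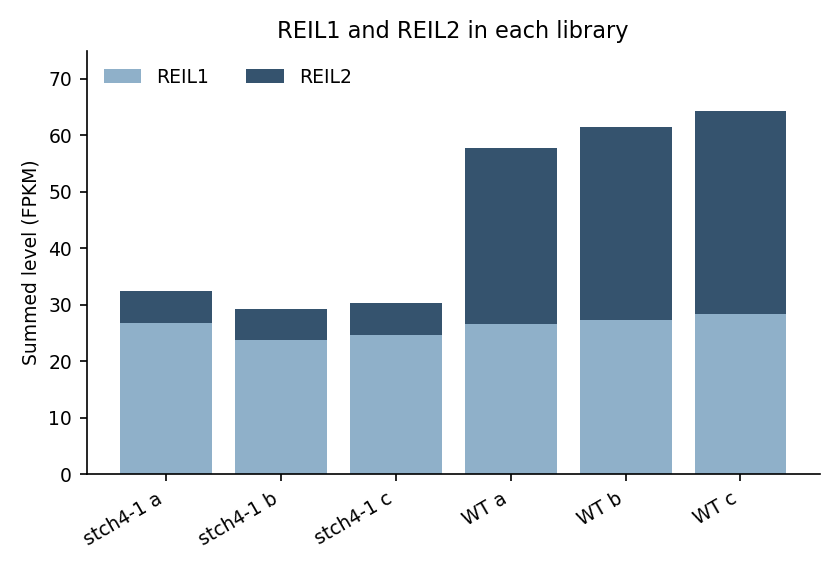
Stacked bars of the REIL1 level (light) and the REIL2 level (dark) in FPKM in each of the 3 stch4-1 and 3 WT libraries after 4 h at 4 °C. The REIL1 part is between 23.8 and 28.4 FPKM in all 6 libraries, and the sum is 29.3 to 32.5 FPKM in stch4-1 and 57.8 to 64.4 FPKM in WT.

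The genes next to REIL2 in the annotation were looked up as a check on the locus. RPA2 (AT2G24490), a subunit of replication protein A, stands 2 places before it and had 8.51, 10.2 and 10.2 FPKM in stch4-1, against 11.1, 9.64 and 11.3 FPKM in WT. The ranges overlapped and the difference did not pass (log2 fold change -0.14, limma adjusted p = 0.268). AT2G24480, which comes directly before REIL2 in the annotation order, was listed at 0 in 5 libraries and at 0.225 FPKM in WT a. The 2 annotated genes on the other side, MIR5019 and AT2G08040, have no value here.

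The J-protein gene was the second of the set to be called. In yeast, Jjj1 works with Rei1 and stimulates the ATPase of a cytosolic HSP70. JJJ1-like had 7.84, 7.89 and 7.12 FPKM in stch4-1, against 9.88, 9.795 and 11.0 FPKM in WT. All 3 mutant libraries were below all 3 WT libraries. The difference was -0.38 on the log2 scale, with a standard error of 0.070 and a 95% interval of -0.54 to -0.22 (limma adjusted p = 0.0051), and 5.11% of tested genes had a lower one. The call held in each of 14 alternative analyses, with log2 fold changes from -0.48 to -0.33.

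SBDS, which acts with a GTPase to free the subunit of eIF6, was the third gene called. It had 15.5, 15.3 and 16.2 FPKM in stch4-1, against 16.7, 18.7 and 19.97 FPKM in WT, and the ranges did not overlap. It had a log2 fold change of -0.22 with a 95% interval of -0.38 to -0.06 (limma adjusted p = 0.0391). This call was weak: it was lost when any 1 library other than WT a was left out (adjusted p from 0.0562 to 0.12), and its log2 fold change was -0.09 once the relation of fold change to transcript length was removed (adjusted p = 0.374).

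eIF6A, the target of SBDS, binds the face of the large subunit that meets the small one. It had 80.8, 87.3 and 89.1 FPKM in stch4-1, against 89.0, 91.8 and 86.1 FPKM in WT, and the ranges overlapped widely. Its log2 fold change was -0.05, with a 95% interval of -0.16 to 0.05 (limma adjusted p = 0.406). The second copy, eIF6B (AT2G39820), averaged 0.170 FPKM in stch4-1 and 0.177 FPKM in WT and did not pass the filter on low values. Almost all eIF6 transcript was therefore from eIF6A in both genotypes.

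The LSG1 GTPases are encoded by a pair of genes, and both were low. LSG1-1 had 3.895, 3.25 and 3.97 FPKM in stch4-1, against 4.54, 5.07 and 4.01 FPKM in WT. The mutant values were all lower, though stch4-1 c and WT c lay close together. LSG1-2 had 8.09, 9.33 and 8.75 FPKM in stch4-1, against 8.68, 10.2 and 10.6 FPKM in WT, and these ranges overlapped. Neither passed: the log2 fold change of LSG1-1 was -0.24 with a 95% interval of -0.47 to 0.0029 (limma adjusted p = 0.117), and that of LSG1-2 was -0.15 with a 95% interval of -0.35 to 0.05 (limma adjusted p = 0.211). With about 98 to 172 fragments per library, LSG1-1 had the fewest fragments and the widest interval of the 10. The 2 genes together amounted to 12.4 ± 0.3895 FPKM in stch4-1 and 14.4 ± 1.04 FPKM in WT (SD, n = 3 each), and LSG1-1 gave 29.8% ± 3.535 of that in stch4-1 and 31.7% ± 3.77 in WT (SD, n = 3 each). Their coding sequences were 82.2% identical over 1611 aligned bases, with a longest shared run of 35 bases between the transcripts.

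NMD3, the export adaptor, had 49.9, 50.5 and 48.7 FPKM in stch4-1, against 51.8, 54.7 and 51.7 FPKM in WT. The groups did not overlap, but the gap between stch4-1 b and WT c was small. Its log2 fold change was -0.08, with a 95% interval of -0.17 to 0.01 (limma adjusted p = 0.133). EBP1, the plant relative of Arx1 and of human EBP1, was the most abundant of the 10. It had 113, 114 and 109 FPKM in stch4-1, against 127, 111 and 116 FPKM in WT, and WT b was inside the mutant range. Its log2 fold change was -0.07, with a 95% interval of -0.20 to 0.05 (limma adjusted p = 0.313).

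RLP24, the placeholder for L24, was the only one of the 10 with a positive fold change. It had 85.0, 82.6 and 79.2 FPKM in stch4-1, against 74.5, 74.1 and 78.5 FPKM in WT, and every mutant library was above every WT library. The log2 fold change of 0.12 had a 95% interval of 0.02 to 0.21 and did not pass over all genes (limma adjusted p = 0.0601). It was 0.03 under quantile normalization, 0.02 with libraries rescaled to equal sums and -0.01 with the length relation removed. Without stch4-1 c it was 0.15 and was called higher (adjusted p = 0.0433).

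**Figure D2:**
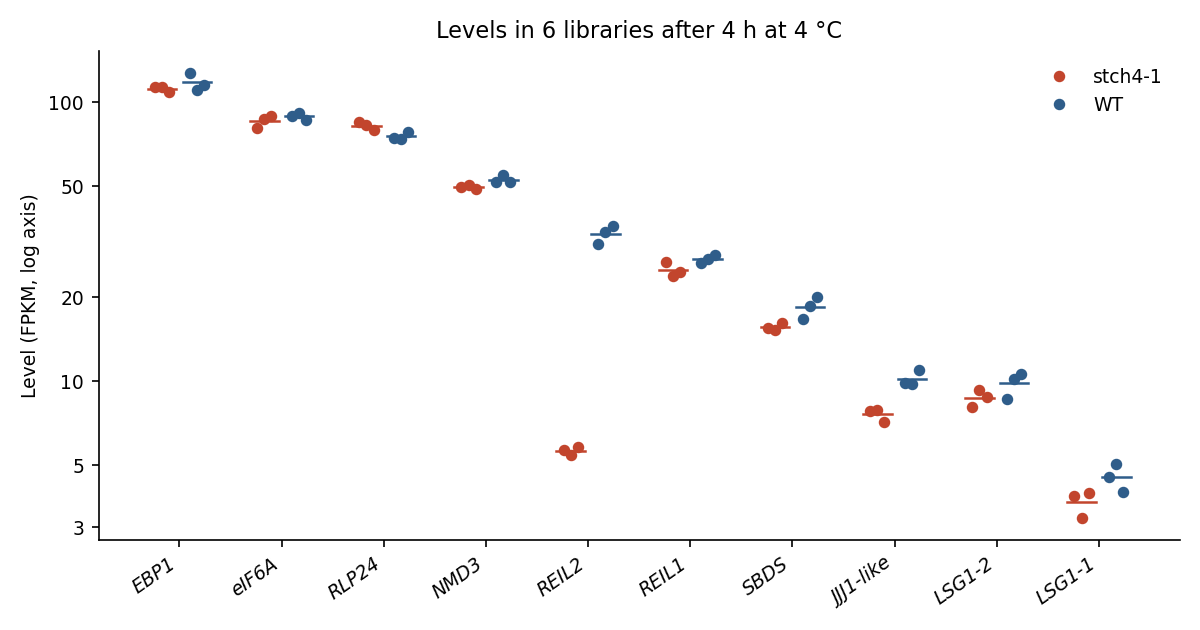
Level in FPKM on a log axis of the 10 genes in each library, with stch4-1 left (red) and WT right (blue) and a line at each group mean, ordered by WT mean. REIL2 separates by far the most, at 5.44 to 5.804 FPKM in stch4-1 and 31.2 to 36.0 FPKM in WT, and RLP24 is the one gene whose mutant points are all above its WT points.

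Read as levels, the set spanned more than an order of magnitude. In stch4-1 the order of mean FPKM was EBP1 (112), eIF6A (85.7), RLP24 (82.3), NMD3 (49.7), REIL1 (25.1), SBDS (15.6), LSG1-2 (8.73), JJJ1-like (7.62), REIL2 (5.63) and LSG1-1 (3.70). In WT it was EBP1 (118), eIF6A (89.0), RLP24 (75.7), NMD3 (52.7), REIL2 (33.8), REIL1 (27.5), SBDS (18.4), JJJ1-like (10.2), LSG1-2 (9.83) and LSG1-1 (4.54). Neighbours in this order overlapped between libraries in 1 place per genotype, eIF6A with RLP24 in stch4-1 and JJJ1-like with LSG1-2 in WT. REIL2 held the ninth place in stch4-1 and the fifth in WT. Among the levels of all tested genes it stood at percentile 28.0 in stch4-1 and 76.7 in WT.

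How far the smaller differences can be read depended on scale. Summed FPKM was 947218 to 987059 in stch4-1 and 878394 to 919309 in WT, so the genotypes differ in the total itself. With libraries rescaled to equal sums, 7 of the 10 genes were called lower and 0 higher, and 24.6% of all tested genes were called lower. REIL1 (log2 fold change -0.23), NMD3 (-0.19), LSG1-1 (-0.32) and eIF6A (-0.16) joined the 3 genes above. Under quantile normalization 6 of 10 were called lower and 0 higher, with REIL1 at -0.17, NMD3 at -0.16 and eIF6A at -0.16 among them, and 16.1% of all tested genes were called lower. Of the genes called in either direction over the whole table, 56.9% were higher as deposited, 29% at equal sums and 45.7% under quantile normalization. REIL2, JJJ1-like and SBDS were called lower on all 3 scales.

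**Figure D3:**
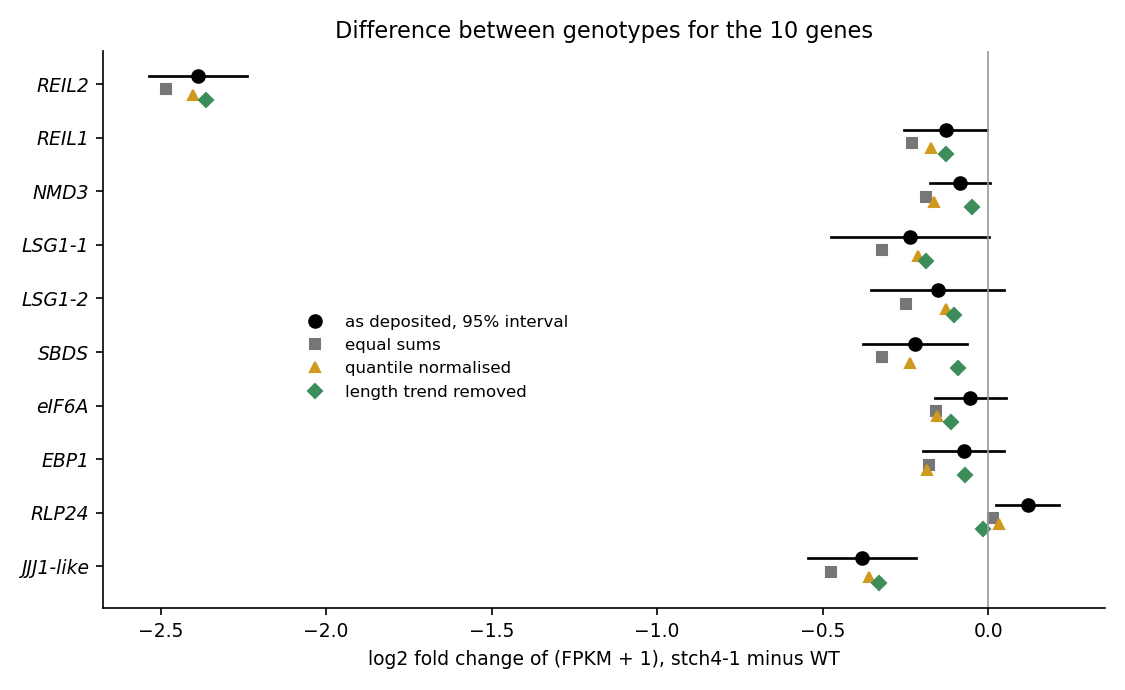
log2 fold change of FPKM + 1 (stch4-1 minus WT, horizontal axis) for the 10 genes, with black points and 95% interval bars for values as deposited, and grey squares, yellow triangles and green diamonds for equal sums, quantile normalization and removal of the length relation. REIL2 is near -2.4 on every scale, JJJ1-like stays between -0.48 and -0.33, and RLP24 is at 0.12 as deposited and between -0.01 and 0.03 on the other scales.

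Fold changes in this comparison also ran with transcript length across all genes. When genes were split into 10 bins by exon length, those of the shortest bin, with a median length of 758 bases, had a median log2 fold change of 0.18. Those of the longest, with a median length of 3842.5 bases, had -0.15. RLP24 (857 bases) is in the shortest bin and SBDS (3461 bases) in the longest. Exon length counts the exons of all transcript models of a gene together. The SBDS model used for its coding sequence has 2697 bases, and the bins were not redone with that length. All 10 genes had a log2 fold change below the median of their own bin, but only REIL2 and JJJ1-like were in the lowest 10% of it. JJJ1-like stood at percentile 4.6 of its bin, SBDS at 34 and RLP24 at 40.3. With the length relation removed, 2 of the 10 were called lower, where 10.4% of all tested genes were, and these were REIL2 (log2 fold change -2.36, limma adjusted p = 9.91e-07) and JJJ1-like (-0.33, limma adjusted p = 0.0103).

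**Figure D4:**
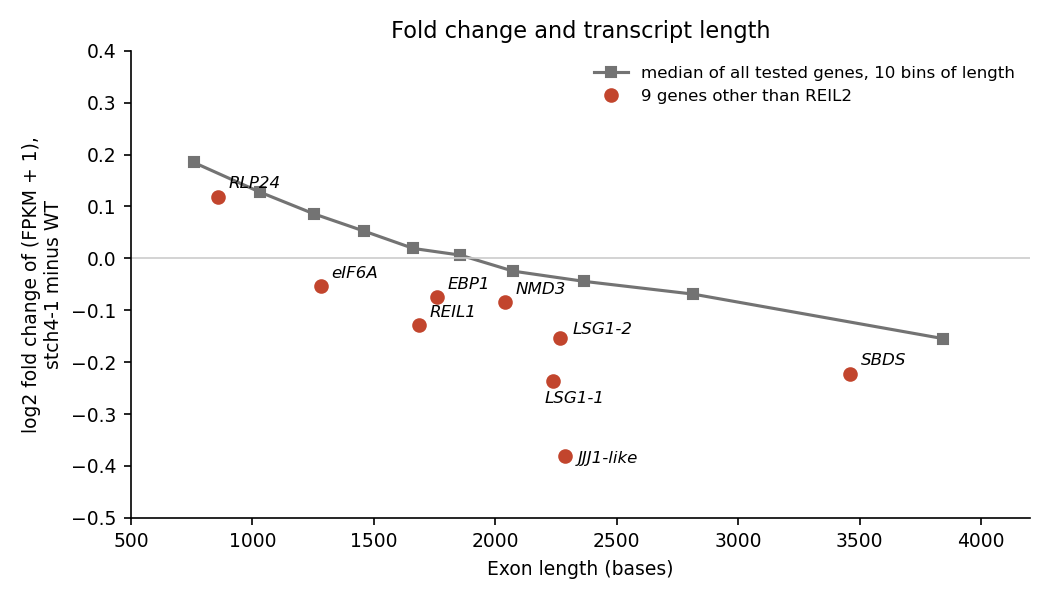
log2 fold change of FPKM + 1 (stch4-1 minus WT) against exon length in bases, with the median of all tested genes in 10 bins of length (grey squares) and the 9 genes other than REIL2 (red points). All 9 points are under the grey line, JJJ1-like furthest at -0.38, while RLP24 and SBDS follow the slope from 0.18 to -0.15.

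The rest of the pathway was taken from 4 lists of genes. Other factors of late 60S maturation had 2 of 11 tested members lower and 0 higher, with a median of -0.09, beside 14.0% lower, 18.5% higher and a median of 0.01 over all genes. At an unadjusted limma p under 0.05 they were 3 lower and 1 higher. At equal sums 4 were called lower and 0 higher, with a median of -0.19. Over all tested genes 24.6% were then lower and 10% higher, with a median of -0.08. Under quantile normalization the counts were also 4 and 0, with a median of -0.09. Over all tested genes 16.1% were then lower and 13.6% higher, with a median of -0.01. With the length relation removed 1 was lower and 1 higher, with a median of -0.002, against 10.4% lower and 16.2% higher over all genes. NOG1-1 and NUG2 joined NSN1 and MDN1 on the first of these scales and on the second, and XPO1A was the one called higher with the length relation removed. NSN1, a nucleolar GTPase related to nucleostemin, had 24.3, 25.1 and 26.8 FPKM in stch4-1, against 35.5, 33.4 and 35.4 FPKM in WT (log2 fold change -0.44, limma adjusted p = 0.00062). It was called in every alternative. MDN1, the giant AAA ATPase midasin that remodels the pre-60S particle, averaged 1.501 ± 0.0806 FPKM in stch4-1 and 2.35 ± 0.0897 FPKM in WT (SD, n = 3 each; log2 fold change -0.42, limma adjusted p = 0.0098). Its transcript of 16614 bases is far into the long end, and with the length relation removed its log2 fold change was 0.04 (adjusted p = 0.775).

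The other 9 tested late factors did not pass as deposited. The GTPase NOG1-1 had a log2 fold change of -0.11, its fellow GTPase NUG2 -0.09, the EFL1 GTPase that acts with SBDS -0.14 and the exportins XPO1A and XPO1B 0.03 and -0.12. MRT4, the placeholder for the stalk protein P0, stood at 93.0 ± 3.86 FPKM in stch4-1 and 86.4 ± 1.005 FPKM in WT (SD, n = 3 each; limma adjusted p = 0.0776). The AAA ATPase CIP111 had a log2 fold change of 0.02, the BUD20-like zinc-finger protein 0.00 and the WD-repeat protein NLE -0.02. The second NOG1 gene, NOG1-2, was below the filter with eIF6B.

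Factors of early, nucleolar 60S assembly had 4 of 14 members lower and 1 higher, with a median of -0.06, beside the same 14.0% and 18.5% over all genes. At an unadjusted limma p under 0.05 there were 6 lower and 1 higher. At equal sums 7 were lower and 0 higher, with a median of -0.16, beside 24.6% and 10% of all tested genes. Under quantile normalization 4 were lower and 0 higher, with a median of -0.13, beside 16.1% and 13.6%. With the length relation removed 3 were lower and 1 higher, with a median of -0.08, beside 10.4% and 16.2%. The lower ones as deposited were SDA1, PPAN, NOC2 and EBP2. Under quantile normalization PES was called lower and NOC2 was not, and NOC2 was also not called with the length relation removed. SDA1 had the largest fall of the list, with 12.2, 12.7 and 12.0 FPKM in stch4-1 against 17.6, 16.4 and 16.6 FPKM in WT (log2 fold change -0.43, limma adjusted p = 0.00085). RRB1, the chaperone of ribosomal protein L3 in yeast, was the one called higher, at 45.6 ± 1.39 FPKM in stch4-1 and 40.9 ± 0.561 FPKM in WT (SD, n = 3 each; limma adjusted p = 0.0188). RRB1 was not called at equal sums (adjusted p = 0.394), under quantile normalization (adjusted p = 0.108) or without WT a, WT c or stch4-1 a (adjusted p from 0.0536 to 0.0699).

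Ribosomal proteins that join the particle late, L10, L12, L24, L40 and P0, had 5 of 13 genes higher and 0 lower, with a median of 0.11, where 18.5% of all tested genes were called higher and 14.0% lower. At equal sums 2 were higher and 1 lower, with a median of 0.0024, where 10% of all tested genes were called higher and 24.6% lower. Under quantile normalization 2 were higher and 2 lower, with a median of -0.02, against 13.6% and 16.1% of all tested genes. Without WT c or stch4-1 a, 2 of the 13 were called. At an unadjusted limma p under 0.05, 6 were higher and 0 lower. The 5 higher as deposited were RPL40A, RPL40B, RPL10A, RPL12C and RPP0B. With the length relation removed 2 were higher and 1 lower, with a median of 0.05, against 16.2% and 10.4% of all tested genes. At equal sums, under quantile normalization and with the length relation removed, the 2 higher were RPL40A and RPL40B. RPL12A was called lower on each of these scales, at log2 fold changes of -0.18, -0.21 and -0.19. RPL40B, which encodes L40 fused to ubiquitin, had 906, 866 and 884 FPKM in stch4-1, against 707, 702 and 688 FPKM in WT (log2 fold change 0.34, limma adjusted p = 0.00038), and it was called higher in every alternative. RPL24A and RPL24B, whose protein takes the place of RLP24, were not called as deposited (log2 fold changes 0.09 and 0.04), and RPL24B was called lower under quantile normalization.

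HSP70 genes and ZUO1-like genes, the partners and relatives of J proteins, had 3 of 7 members higher and 1 lower, against 18.5% and 14.0% of all tested genes. Their median was 0.07 as deposited, -0.03 at equal sums, -0.07 under quantile normalization and 0.19 with the length relation removed. The counts were 3 higher and 2 lower at equal sums, against 10% and 24.6% of all tested genes. They were 3 higher and 1 lower under quantile normalization, against 13.6% and 16.1%. With the length relation removed they were 4 higher and 1 lower, against 16.2% and 10.4%. HSC70-1, HSC70-2 and HSP70-4 were the higher ones as deposited. HSC70-3 was also called higher with the length relation removed, and ZRF1B was called lower at equal sums. HSP70-4, a cytosolic HSP70, had the largest rise, to 14.4 ± 0.497 FPKM in stch4-1 against 9.62 ± 0.124 FPKM in WT (SD, n = 3 each; log2 fold change 0.54, limma adjusted p = 0.00032). ZRF1A, a ZUO1-like J protein, was the one called lower as deposited, with 16.6 ± 0.258 FPKM in stch4-1 and 20.5 ± 0.460 FPKM in WT (SD, n = 3 each; log2 fold change -0.28, limma adjusted p = 0.0025). HSP70-4 was called higher, and ZRF1A lower, in every alternative.

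**Figure D5:**
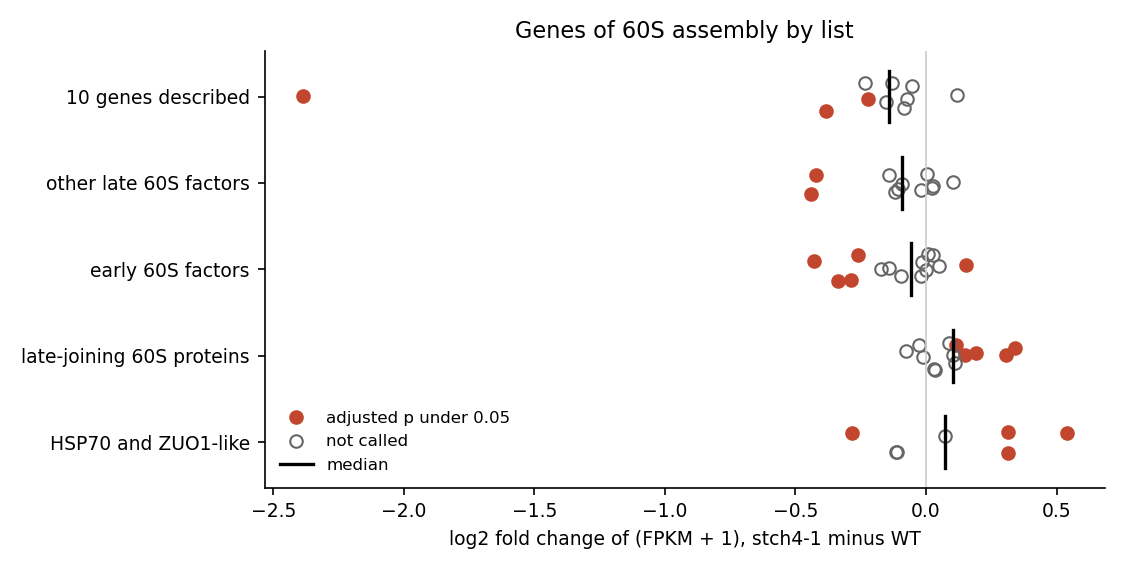
log2 fold change of FPKM + 1 (stch4-1 minus WT) for the 10 genes and the tested members of 4 lists, one row each; filled red points were called, open points were not, and black bars are medians, which run from -0.14 for the 10 genes to 0.11 for late-joining 60S proteins as deposited. The late-joining proteins have 5 called points to the right and none to the left as deposited, and at equal sums 2 and 1.

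In whole seedlings, fewer cells of a type and less RNA per cell cannot be told apart. Of 7 root markers 3 were called lower and 0 higher, where 14.0% of all tested genes were called lower, and their summed level was 104 to 109 FPKM in stch4-1 and 137 to 143 FPKM in WT. The 3 were PRP3, MRN1 and CASP1, and PRP3 made up most of the difference in the sum, with a mean of 33.1 FPKM in stch4-1 and 54.1 FPKM in WT. EXPA7 averaged 18.9 FPKM in stch4-1 and 18.5 FPKM in WT, MYB36 7.70 FPKM in stch4-1 and 7.34 FPKM in WT, and neither was called, nor were COBL9 and GL2. Of 6 markers of dividing cells, which are rich in ribosome assembly, 3 were called lower and 0 higher, beside 14.0% and 18.5% of all tested genes. Those called were MCM3, PCNA1 and CYCB2-4. CYCB1-1 averaged 4.72 FPKM in stch4-1 and 3.99 FPKM in WT, and PCNA2 20.2 FPKM in stch4-1 and 18.9 FPKM in WT. KNOLLE averaged 23.7 FPKM in stch4-1 and 25.1 FPKM in WT, and none of these was called. The summed levels of the list, 70 to 74.3 FPKM in stch4-1 and 73.8 to 79.4 FPKM in WT, overlapped. Of 3 green leaf markers 0 were called in either direction by limma as deposited, and 1 was called lower under quantile normalization. Their summed level was 23040 to 29910 FPKM in stch4-1 and 23110 to 29020 FPKM in WT. At an unadjusted limma p under 0.05, the root markers had 4 lower and 0 higher, those of dividing cells 3 lower and 0 higher, and those of green leaf 0 in either direction. No marker of these lists was at 0 in any library. The part of these shifts in the values of the 10 genes was not tested.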

How the data were processed

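The deposited table holds FPKM per gene, made by the authors with TopHat2 and Cufflinks on TAIR10, per the submitters' processing notes; no source used here gives versions, the strand setting or how reads matching several genes were treated. Of 18 samples in 6 groups, 6 libraries of 2 groups have columns. Columns are numbered from 0, titles from 1, so libraries are called a, b and c in table order.

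limma 3.58.1 (R 4.3.3) fitted both group means of log2(FPKM + 1), with eBayes following the intensity trend, 4 residual degrees of freedom, 2-sided tests and Benjamini-Hochberg adjustment over 19289 genes. The fit was tested on simulated data. Lengths and sequences came from RefSeq TAIR10.1 with Python 3.11.15 and biopython 1.88; the table carries no coordinates. Exon length was known for 19153 tested genes. The depth estimate used genes of 1 transcript model, and assumed RefSeq lengths and that their commonest low level is 1 fragment.

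The 10 genes and all lists were chosen with earlier results of these data known. Named genes were the 10, the 2 annotated genes on each side of REIL2, eIF6B, all late factors, and the called extremes of each other list; RPL24A, RPL24B and NOG1-2 are list members. Alternatives changed pseudocount, filter, scaling, eBayes trend, length relation, replicate block and library set.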

Additional observations from a re-analysis of the deposited data

How the results depend on the processing

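REIL2, JJJ1-like, LSG1-2 and EBP1 kept direction and side of the threshold in all 14 alternatives, with REIL2 between -2.56 and -2.34. SBDS was not called without the filter (-0.22, adjusted p = 0.0595), without the eBayes trend (-0.22, adjusted p = 0.0557) or with the length relation removed (-0.0915). At equal sums the called members numbered 7, with REIL1 (-0.23), NMD3 (-0.19), LSG1-1 (-0.32) and eIF6A (-0.16) gained; under quantile normalization they numbered 6, with REIL1 (-0.17), NMD3 (-0.16) and eIF6A (-0.16) gained. With the length relation removed RLP24 (-0.0149) and MDN1 (0.0424) changed sign. The other late factors had 1 of 7 called with a mean of at least 5 FPKM, where 5734 of all 14489 tested genes were called. They had 4 of 11 called at equal sums and under quantile normalization. Over all tested genes 6678 of 19291 and 5722 of 19289 were then called. Without the eBayes trend 5935 of 19289 were called, and with the length relation removed 5110 of 19153. The late-joining proteins had 3 of 13 called at equal sums, without the eBayes trend and with the length relation removed. The cause of these moves was not tested.

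Leaving out 1 library gave 4508 to 5425 calls over all genes (6280 with all), 2 to 3 of the 10 members, 2 of the other late factors, 3 to 4 of the early factors, 2 to 5 of the late-joining proteins and 4 of the HSP70 and ZUO1-like genes. SBDS then ranged from -0.29 to -0.17 and RLP24 from 0.10 to 0.15, called higher without stch4-1 c (adjusted p = 0.0433). The early factors had 3 called without WT c. LSG1-1 has no value with a mean of at least 5 FPKM. The column numbers, shared by both genotypes, are not the title numbers. A replicate block on them, chosen after seeing the data, left 2 residual degrees of freedom and gave 5080 calls, with 3 of the members, 3 early factors and 3 late-joining proteins called, and RRB1 lost (adjusted p = 0.0559). Deviations of same-numbered libraries correlated at -0.135 to 0.053, so the numbers were not taken to pair libraries, and not every library correlated best with its own number. The block changed no call among the 10 genes. About 98 to 172 fragments per library limit LSG1-1, by counting alone.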
